A study of Mus musculus with 13 samples.

Results

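The HUSH complex, with the enzymes that work with it, was followed in primary mouse embryonic fibroblasts cooled from 37 °C to 32 °C. The list held 8 genes: Tasor (called Fam208a in older annotation), Mphosph8, Pphln1, Morc2a, Setdb1, Atf7ip, Trim28 and Banp. Of these, 7 had a transcript cluster annotated to them alone, among 19938 genes measured in that way. Where a gene had several clusters, the one with the highest mean over the 13 arrays was used. Tasor and Banp were selected on their measured difference between 32 °C and 37 °C, so their values at the 2 temperatures are given as a description and carry no p-value. The other members are known subunits or partners of the complex, except Trim28, which brings in Setdb1 by a route apart from HUSH. They were listed with earlier results of these data known.

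HUSH, the human silencing hub, is a nuclear complex that recognises long intronless transcripts, many of them from integrated retroviruses and retrotransposons, and silences the DNA they come from. Tasor is its scaffold, Mphosph8 (also called Mpp8) reads methylated lysine on histone H3 through a chromodomain, and Pphln1 (periphilin) binds RNA. The complex recruits the methyltransferase Setdb1, which adds the H3K9 mark, and the ATPase Morc2a, which compacts chromatin. In mammalian cells this machinery is known for keeping retroelements silent.

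One array held the fibroblasts at 0 h, kept at 37 °C, and served as the start of both time courses. A further 6 arrays held cells kept at 37 °C for 0.5, 1, 2, 4, 8 and 18 h. The last 6 held cells cooled for the same times by lowering the incubator to 32 °C. All cells were grown at 37 °C under 5% CO2 in DMEM with 10% FBS to 60-70% confluence before the experiment, and no gene was altered in any group. Each array took the pooled RNA of 3 dishes, which leaves 1 array per time and temperature. The tests therefore take their error from the scatter of the arrays around a common course and not from replicate cultures, and the number of arrays limits their precision. Array medians spanned 0.046 in log2 intensity, and Cirbp, a transcript known to rise with mild cooling, was 2.99-fold higher at 32 °C over 4, 8 and 18 h (limma, adjusted p = 0.00599), with pairwise log2 differences from 1.24 to 1.79. The Cirbp call was lost on relative ranks (limma, adjusted p = 0.0528) and without the 8 h pair (adjusted p = 0.0671). Rbm3, the other transcript set as a check of cooling, was only 1.07-fold higher over the same times and did not pass (limma, adjusted p = 0.467). The fibroblast markers Vim, Fn1 and Col1a1 had mean log2 values of 13.8, 13.5 and 12.2, and 0 of 9 fibroblast markers passed in any comparison of temperatures (limma; 3 were lower late in cooling at an unadjusted p under 0.05, and the late median was -0.10). Markers of macrophages, endothelium and epithelium had mean log2 values between 4.77 and 7.65. Of 4 macrophage markers none passed (limma), but Cd68 and Csf1r had late log2 differences of 0.27 each, both with an unadjusted p under 0.05, against -0.044 for Ptprc and 0.097 for Adgre1. The part of these markers in the members' values was not tested. At an unadjusted p under 0.05 (limma), 10.8% of all genes were lower late in cooling and 7.62% higher. Of the neural and muscle markers, Map2 (10.3) and Acta1 (11.1) stood above the range of 4.77 to 7.65. The late log2 difference of Map2 was -0.50 ± 0.402 (SD, n = 3 pairs) and did not pass (limma, adjusted p = 0.0759), while 3 of 4 neural markers were above 0. That of Acta1 was -0.0091. In RNA of whole cultures, fewer cells of a type and less RNA per cell cannot be told apart.

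Tasor and Banp had lower values from 4 h of cooling onwards, Setdb1 was lower to a smaller degree and passed the test, and Pphln1 had nearly the same values at both temperatures. Atf7ip, Morc2a and Trim28 had late values below their 37 °C partners that did not pass. The comparison called late takes the mean of 32 °C minus 37 °C over 4, 8 and 18 h, separately from that over 0.5, 1 and 2 h, in one limma fit across all genes with Benjamini-Hochberg adjustment. Across all genes 2.15% were lower and 0.802% higher in it at an adjusted p under 0.05, and of the 5 members outside the selected pair 1 was lower (Setdb1) and 0 higher. The median late difference of these 5 was -0.19, and that of all genes 0.0099. Both the count and the median are descriptions, since the list was drawn up with earlier results known. These 5 members had a higher mean log2 intensity than all genes (median 10.4 against 7.54). Among the 9969 genes above the median level, the late comparison called 618 lower and 248 higher. The part of intensity in the count and median of the members was not tested.

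**Figure D1:**
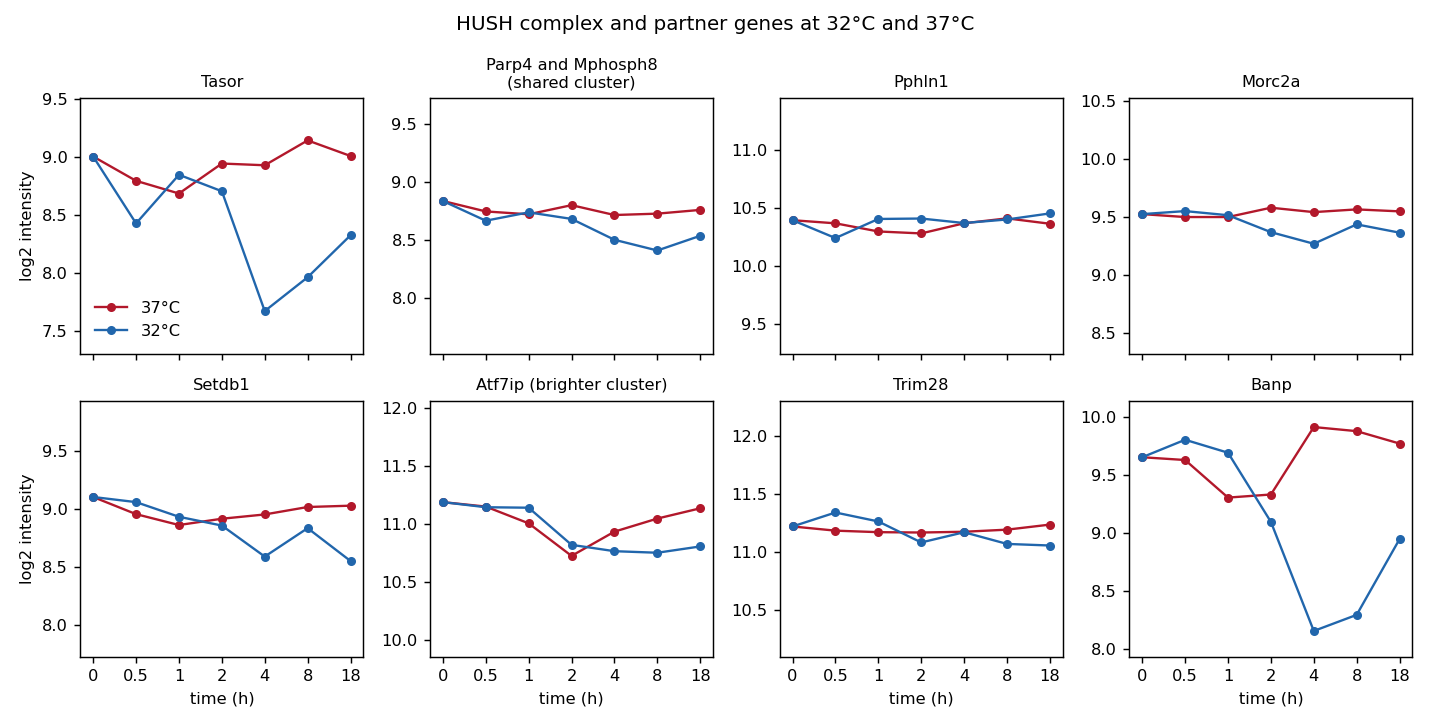
Log2 intensity of the 7 members with their own cluster and of the cluster shared by Parp4 and Mphosph8, against time in order (0 to 18 h, evenly spaced), with 37 °C and 32 °C as separate lines that share the 0 h array. Each point is 1 array of RNA pooled from 3 dishes, so no error bars are drawn. Tasor and Banp reach their lowest values at 4 h of cooling (7.68 and 8.16), while Pphln1 stays between 10.24 and 10.45 on all 13 arrays.

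Tasor is the large scaffold protein that holds the complex together. At 37 °C its intensity was 514 at 0 h and then 445, 412, 493, 488, 566 and 516 at 0.5, 1, 2, 4, 8 and 18 h. In cooled cells the intensity was 345, 461, 418, 204, 250 and 321 at the same times. The arrays at 4, 8 and 18 h of cooling were all below the lowest of the 7 arrays at 37 °C, with a gap of 0.36 on the log2 scale. At 0.5 h the cooled array was also low, whereas at 1 and 2 h it lay within the 37 °C range. The log2 difference of 32 °C minus 37 °C was -0.37, 0.16, -0.24, -1.26, -1.18 and -0.68 along the time course. Its late mean was -1.04 ± 0.311 (SD, n = 3 pairs), which is 0.487 of the level at 37 °C. This was the difference in place 4 from the lowest among 19938 genes. The 18 h array at 32 °C was 0.65 above the 4 h array on the log2 scale, against a change of 0.080 at 37 °C, and still 0.68 below the 0 h array.

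Mphosph8 encodes the chromodomain subunit. The only cluster found for it was annotated to both Parp4 and Mphosph8, so it was neither tested nor assigned to either gene. In log2 intensity this shared cluster read 8.83 at 0 h and 8.74, 8.72, 8.80, 8.71, 8.72 and 8.76 over the later times at 37 °C. At 32 °C it read 8.66, 8.74, 8.68, 8.50, 8.41 and 8.53. The 3 late cooled arrays were the lowest of the 13, and the late mean difference was -0.25 ± 0.057 (SD, n = 3 pairs). Which of the 2 transcripts carried the difference cannot be told from this cluster.

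Pphln1, the RNA-binding subunit, showed a different picture. Its log2 intensity was 10.40 at 0 h, between 10.28 and 10.41 on the 6 later arrays at 37 °C, and between 10.24 and 10.45 on the 6 arrays at 32 °C. The ranges overlapped almost completely. The late mean difference was 0.027 ± 0.054 (SD, n = 3 pairs; limma, adjusted p = 0.881), and only 1 of the 3 late pairs was lower at 32 °C. Pphln1 was the sole member with a positive late difference.

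Morc2a is the ATPase that HUSH calls on to compact its targets. Its 7 arrays at 37 °C were the most even but one among the members, from 9.50 to 9.58 in log2 intensity. At 32 °C the values were 9.55, 9.51, 9.37, 9.27, 9.44 and 9.36. From 2 h onwards every cooled array lay below all arrays at 37 °C. The late difference was -0.19 ± 0.072 (SD, n = 3 pairs), or 0.874 of the 37 °C level, and did not pass in the fit across all genes (limma, adjusted p = 0.177).

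Setdb1 is the methyltransferase of the pathway and was the member outside the selected pair that passed. Its intensity was 550 at 0 h and 496, 465, 483, 495, 518 and 522 during the later times at 37 °C. With cooling it was 533, 488, 463, 385, 456 and 375. The first 3 times did not separate the temperatures, and the 3 late cooled arrays were below every array at 37 °C, by as little as 0.027 on the log2 scale. Setdb1 fell to 0.790 of the 37 °C level over 4, 8 and 18 h, a log2 difference of -0.34 ± 0.148 (SD, n = 3 pairs; SE 0.072 in the limma fit, adjusted p = 0.0416), lower in 3 of 3 late pairs. The call was lost with any single time left out, with adjusted p from 0.0530 to 0.182. Quantile normalization and ranks gave adjusted p of 0.0596 and 0.101. Its lowest value came at 18 h, and the change between 4 and 18 h of cooling was -0.038.

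Atf7ip binds Setdb1 and keeps it stable in the nucleus. Its log2 intensity at 37 °C was 11.19 at 0 h and 11.15, 11.01, 10.73, 10.93, 11.05 and 11.14 later, so that it dipped at 2 h without any cooling. At 32 °C it was 11.14, 11.14, 10.82, 10.77, 10.75 and 10.81. The 2 courses went down together until 2 h, and then the 37 °C arrays went back up while the cooled ones stayed down. The groups overlapped because of the 37 °C array at 2 h. The late difference was -0.26 ± 0.084 (SD, n = 3 pairs; limma, adjusted p = 0.0603). A dimmer second cluster of Atf7ip gave -0.33 ± 0.167 (SD, n = 3 pairs).

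Trim28 is the corepressor through which zinc finger proteins bring Setdb1 to retroelements, a route apart from HUSH. It ranged from 11.17 to 11.24 over the 7 arrays at 37 °C, the narrowest range among the members. At 32 °C it was 11.34, 11.27, 11.09, 11.17, 11.07 and 11.06, above the 37 °C range at the first 2 times and below it at 2, 8 and 18 h. The late difference of -0.10 ± 0.090 (SD, n = 3 pairs) did not pass (limma, adjusted p = 0.478).

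Banp, listed with the complex although it is not a subunit, is a DNA-binding protein that recognises a CGCG-containing element in CpG island promoters. At 37 °C its intensity was 805 at 0 h and then 792, 633, 644, 964, 941 and 873. At 32 °C it was 893, 827, 547, 286, 314 and 494. At 0.5 and 1 h the cooled arrays were the higher of each pair, and at 4 and 8 h they were the lower, with ratios of 0.296 and 0.334 to their partners. The 3 late cooled arrays lay below all arrays at 37 °C with a gap of 0.36 on the log2 scale. The late mean difference was -1.39 ± 0.496 (SD, n = 3 pairs), or 0.383 of the 37 °C level, and no gene among the 19938 had a lower one. As for Tasor, the cooled array at 18 h was above that at 4 h, by 0.79, against -0.14 at 37 °C.

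**Figure D2:**
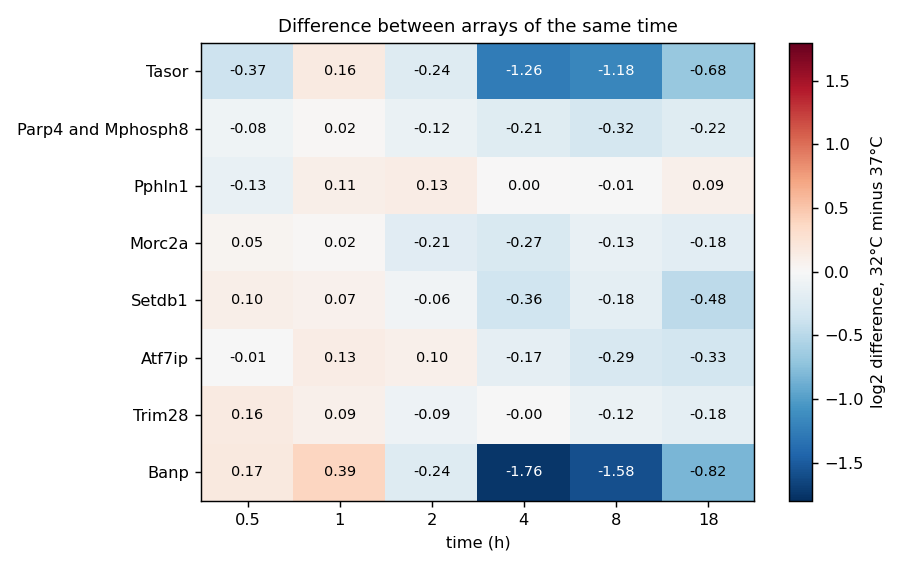
Heat map of the log2 difference of 32 °C minus 37 °C (blue lower at 32 °C, red higher), with the 7 members and the Parp4 and Mphosph8 cluster as rows and the 6 matched times in hours as columns, each cell 1 pair of arrays with its value printed. The darkest cells are Banp and Tasor at 4 and 8 h (-1.76 and -1.26 at 4 h), and those of Pphln1 lie between -0.13 and 0.13.

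Counted without a test, all 3 late cooled arrays lay below all 7 arrays at 37 °C for 7.79% of genes. Of the 5 members outside the selected pair this was so for 2, Morc2a and Setdb1. Other comparisons gave fewer calls. In the divergence, the slope of 32 °C against 37 °C per step of time from the common 0 h array, 1.66% of genes were lower and 1.17% higher at an adjusted p under 0.05. Tasor and Banp, selected on this difference, had slopes of -0.17 and -0.22 per step. None of the other 5 passed. Setdb1 had a slope of -0.057 (limma, adjusted p = 0.0705), and the other 4 had adjusted p of 0.131 or more. The mean over all 6 matched pairs called 0.0702% of genes and 0 of the 5 members outside the selected pair (limma). At an unadjusted p under 0.05 it gave 1 of the 5, Morc2a, and 13.5% of all genes. For Tasor that mean was -0.59, with 5 of 6 pairs lower, and for Banp -0.64, with 4 of 6 pairs lower.

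The trend at 32 °C alone, a slope per step of time over the 0 h array and the 6 cooled ones, called 0.0953% of genes and 0 of the 5 members outside the selected pair (limma). At an unadjusted p under 0.05 it gave 3 of the 5 (Setdb1, Atf7ip and Trim28) and 16.5% of all genes. Banp (-0.24) and Tasor (-0.15) had the steepest slopes among the members, followed by Setdb1 at -0.087 (limma, adjusted p = 0.0813) and Atf7ip at -0.082 (limma, adjusted p = 0.0870). Setdb1 had the most orderly fall, with a Kendall tau with time of -0.90 over the 7 arrays. Tau was -0.81 for Atf7ip, -0.71 for Trim28, -0.62 for Morc2a and 0.43 for Pphln1. For both Tasor and Banp, whose values were higher again after 4 h, it was -0.52. The trend at 37 °C called 0% of genes, with 5.8% at an unadjusted p under 0.05, and no member had an adjusted p under 0.908 (limma).

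The courses of the members resembled each other to different degrees. Over the 13 arrays, which share the 0 h start and the late temperature difference, Pearson's r was 0.88 between Tasor and Banp, 0.64 within the 7 arrays at 37 °C and 0.85 within the 6 at 32 °C. Among the other members Morc2a and Setdb1 were the closest pair (r = 0.85, n = 13 arrays), though only 0.17 within the 7 arrays at 37 °C. Pphln1 had r from -0.57 to -0.04 with the other members over the 13 arrays, whereas within the 7 arrays at 37 °C it had r of 0.86 with Banp, 0.79 with Setdb1, 0.70 with Atf7ip, 0.62 with Tasor, 0.56 with Trim28 and -0.03 with Morc2a. Banp came only in place 77 among the genes most like Tasor. The 3 with the highest r to Tasor were Itsn2 (0.979), Mettl4 (0.969) and Ogt (0.968), with late log2 differences of -0.26, -0.61 and -0.59. To Banp they were Git2 (0.975), Dcun1d2 (0.966) and Chtf8 (0.963), with late differences of -0.34, -0.68 and -0.34. Itsn2 and Git2 act in membrane traffic and signalling at the cell surface, and Ogt adds O-linked sugar to nuclear proteins. These r values are descriptions, given without a test.

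Promoter sequence is shown for Tasor, the lowest of the HUSH subunits, for Setdb1, and for Tasor2, the paralog of Tasor, because Banp binds a CGCG element. CGCG occurs 3 times each in the windows of Tasor and Tasor2, and not at all in that of Setdb1. The sequences are from RefSeq (GRCm38.p6), the 250 bases before the annotated start, 5′ to 3′ on the strand of the gene. Windows were found for 7 of the 8 members. In the lines for Tasor and Setdb1 capitals mark CGCG, and in the line for Tasor2 they mark the longer element CTCGCGAG. The CGCG at -60 and -52 in the Tasor2 line are therefore in lower case.
Tasor (chr14:27428584-27428833, plus strand): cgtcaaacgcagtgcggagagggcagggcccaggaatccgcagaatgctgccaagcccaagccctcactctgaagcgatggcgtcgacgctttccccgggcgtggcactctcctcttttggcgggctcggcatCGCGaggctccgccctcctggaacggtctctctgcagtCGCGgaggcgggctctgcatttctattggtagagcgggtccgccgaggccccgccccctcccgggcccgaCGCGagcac
Setdb1 (chr3:95357203-95357452, minus strand): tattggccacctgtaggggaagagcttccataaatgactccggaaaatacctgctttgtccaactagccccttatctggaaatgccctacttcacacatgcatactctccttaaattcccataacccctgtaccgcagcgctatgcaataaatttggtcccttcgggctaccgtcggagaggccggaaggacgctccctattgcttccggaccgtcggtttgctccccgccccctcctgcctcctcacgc
Tasor2 (chr13:3611109-3611358, minus strand): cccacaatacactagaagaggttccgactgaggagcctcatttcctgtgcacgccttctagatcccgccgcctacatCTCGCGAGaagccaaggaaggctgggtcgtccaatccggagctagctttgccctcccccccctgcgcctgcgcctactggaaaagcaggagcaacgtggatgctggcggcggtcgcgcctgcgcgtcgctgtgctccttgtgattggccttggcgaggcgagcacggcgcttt

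The printed Tasor sequence held CGCG at -117, -79 and -9 from the start and 27 CpG. The printed Setdb1 sequence held no CGCG and 13 CpG. In the full windows of the other members CGCG occurred 12 and 11 times at the 2 annotated starts of Pphln1, the member with nearly the same values at both temperatures. It occurred 6 times and not at all at the 2 starts of Morc2a, 3 times in Mphosph8, and 2 times each in Atf7ip and Trim28. The printed Tasor2 sequence held CTCGCGAG with its first base at -173, CGCG at -171, -60 and -52, and 22 CpG. Both motifs read the same on the 2 strands, and CTCGCGAG contains CGCG. Over all 32851 windows of 300 bases, CGCG was present in 38.0% and CTCGCGAG in 0.919%. Counted by gene, with a match in any of its windows, the shares were 40.6% and 1.04% of 27025 genes. Both were more frequent among the 15614 tested genes with a window, where 8799 held CGCG and 240 held CTCGCGAG. None of the windows of Tasor, Mphosph8, Pphln1, Morc2a, Setdb1, Atf7ip and Trim28 held CTCGCGAG. A match is a description of letters in these windows and not a site of binding.

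Among tested genes with a window, 240 held CTCGCGAG and 15374 did not. Late in cooling 14 of the 240 were lower and 3 higher, with a median log2 difference of -0.025, and 57.5% of them had a negative difference. For the 15374 without it the counts were 342 and 127, the median 0.0098 and the share 46.5%. The genes with the motif had a higher mean log2 intensity (median 9.47 against 7.63), and the part of this in the counts was not tested. Those with the lowest adjusted p included Uhrf2, a ubiquitin ligase that reads methylated DNA (late -0.58 ± 0.191, SD, n = 3 pairs), and Mettl16, an RNA methyltransferase (-0.59 ± 0.260). Mmaa, of vitamin B12 metabolism, was at -0.51 ± 0.068, and Edrf1 and Bclaf3 were at -0.42 and -0.37. Ofd1, a centriole protein, was higher at 0.46 ± 0.133. All 6 passed in both the late comparison and the divergence (limma, adjusted p from 0.00713 to 0.0471), and all 6 lost both calls without the pair at 8 h, where 0 of 19938 genes passed the late test.

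**Figure D3:**
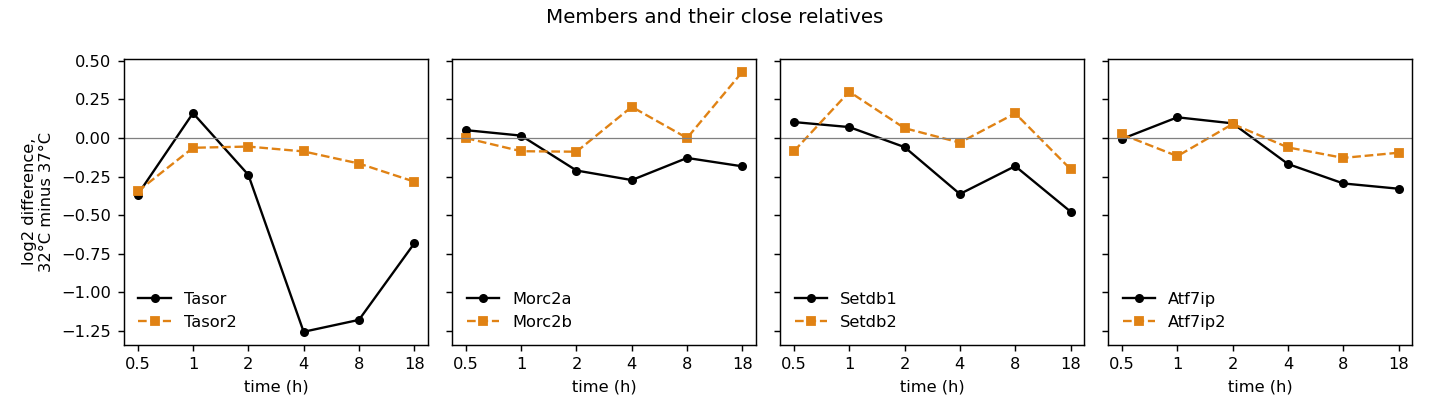
Log2 difference of 32 °C minus 37 °C against the 6 matched times in order (evenly spaced), 1 pair of arrays per point, for Tasor, Morc2a, Setdb1 and Atf7ip (black circles, solid lines) and their close relatives Tasor2, Morc2b, Setdb2 and Atf7ip2 (orange squares, dashed lines). Tasor2 lies below 0 at all 6 times, down to -0.35, while Tasor reaches -1.26 at 4 h.

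The close relatives did not pass. Tasor2, which resembles Tasor in sequence and has been placed in a complex of its own, read 9.97 at 0 h and 9.97, 10.00, 10.09, 10.05, 10.02 and 9.96 at 37 °C in log2 intensity. With cooling it read 9.63, 9.94, 10.03, 9.96, 9.86 and 9.68, lower in 6 of 6 pairs, with low arrays at both 0.5 and 18 h. Its late difference was -0.18 ± 0.099 (SD, n = 3 pairs; limma, adjusted p = 0.251). Whether Tasor and Tasor2 differ in their response was not tested. The other relatives gave late differences of 0.21 ± 0.215 for Morc2b, -0.095 ± 0.034 for Atf7ip2 and -0.024 ± 0.181 for Setdb2 (SD, n = 3 pairs; limma, adjusted p of 0.208, 0.471 and 0.925). In the wider list of 12 relatives 0 passed the late test (limma), with 3 lower and 1 higher at an unadjusted p under 0.05, where 10.8% of all genes were lower and 7.62% higher. The 12 had a median of mean log2 intensity of 9.10, against 7.54 for all genes, and the part of this was not tested. Resf1, which acts with Setdb1 on retroelements, passed in the divergence with a slope of -0.052 per step (limma, adjusted p = 0.0484), and this call was lost in 9 of 13 alternatives.

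Other silencing pathways were described by count and median, with the late median of all genes at 0.0099. Late in cooling 10.8% of all genes were lower and 7.62% higher at an unadjusted p under 0.05, the background for the unadjusted counts of each list. Of the 15 measured genes of H3K9 methylation and its readers 0 passed in either direction (limma), with 7 lower at an unadjusted p under 0.05 and a median of -0.14. Suv39h2, a methyltransferase of the same mark, was at -0.29 ± 0.333 and the demethylase Kdm4c at -0.25 ± 0.089 (SD, n = 3 pairs). The NuRD deacetylase complex had 0 of 13 passing, 1 lower at an unadjusted p under 0.05 and a median of -0.037, where Hdac2 was at -0.28 ± 0.112 and Chd3 at -0.15 ± 0.163. For DNA methylation 0 of 11 passed and 4 were lower at an unadjusted p under 0.05, with a median of -0.15, the maintenance methyltransferase Dnmt1 at -0.28 ± 0.285 and the chromatin remodeller Hells at -0.54 ± 0.536, lower in 6 of 6 pairs. Polycomb had 0 of 17 passing, 1 lower and 2 higher at an unadjusted p under 0.05, and a median of -0.043, with Pcgf3 at -0.28 ± 0.097 and Pcgf6 at 0.22 ± 0.030.

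The SUMO pathway, through which Trim28 and Setdb1 are joined, held the lowest late difference among these pathway lists. Senp7, a protease that trims SUMO chains and acts at heterochromatin, fell to 0.633 of the 37 °C level late in cooling, a log2 difference of -0.66 ± 0.103 (SD, n = 3 pairs; limma, adjusted p = 0.00713). It also passed in the divergence, with a slope of -0.10 per step (limma, adjusted p = 0.0443), a call that was lost in 6 of 13 alternatives. The late call was lost without the 8 h pair (adjusted p = 0.0743) and on ranks (adjusted p = 0.0538). The other 12 measured members did not pass, and the list's median was -0.075. This list was also brighter than all genes (median of mean log2 intensity 10.0 against 7.54), and the part of this was not tested.

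Germline genes, several of them kept silent in somatic cells by such pathways, gave 0 of 18 passing in the late comparison and in the divergence (limma), where 1 and 2 were higher at an unadjusted p under 0.05, against 7.62% and 8.52% of all genes. Their mean log2 intensities lay between 3.31 and 6.14, below the median of 7.54 over all genes. The late median was 0.069 with 15 of 18 above 0, against 53.5% above 0 among all genes. The part of the low intensity in this median and count was not tested. The 2 with the lowest p in the divergence were Tdrd9 (late 0.21 ± 0.174) and Mov10l1 (0.22 ± 0.292), both of the piRNA pathway (SD, n = 3 pairs). Retroelement transcripts themselves were not analysed here.

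**Figure D4:**
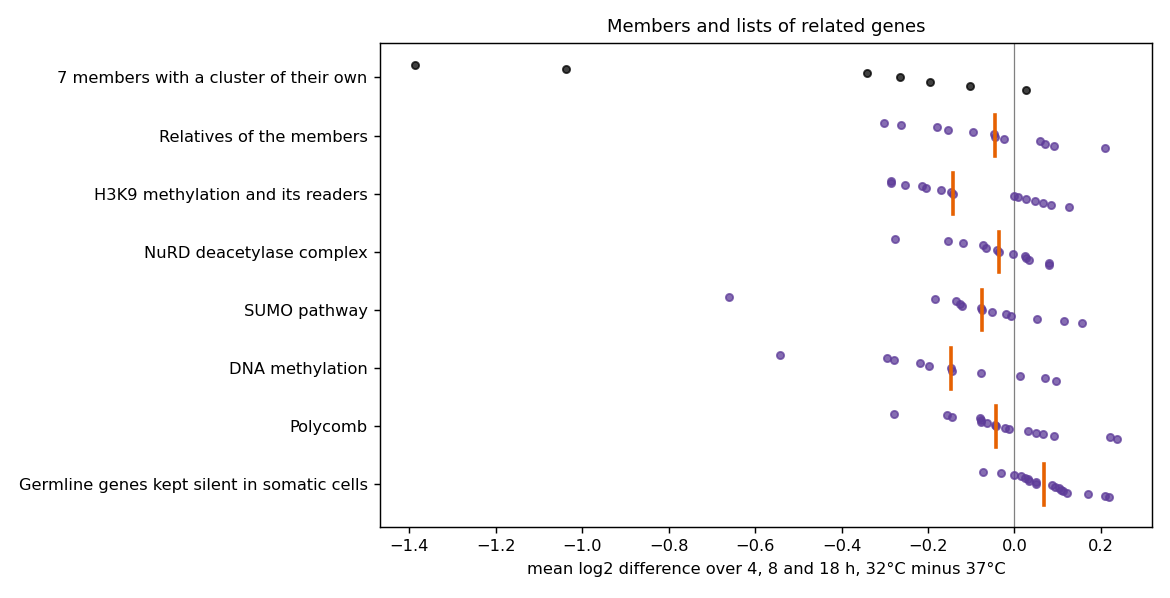
Late log2 difference (mean of 32 °C minus 37 °C over 4, 8 and 18 h) of each measured gene of the members, their relatives and the silencing pathways, 1 point per gene spread vertically by rank, with an orange bar at the median of each list other than the members and a grey line at 0. Banp (-1.39) and Tasor (-1.04) lie below every other gene shown, and the germline list has a median of 0.069.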

How the data were processed

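Gene expression was measured on 13 Mouse Gene 1.0 ST arrays (Affymetrix) of primary mouse embryonic fibroblasts, 1 array for each time and temperature. The authors deposited 1 table of linear intensity values for 28853 transcript clusters, between 4.24 and 18146.4. The summarization and normalization behind it are not given in the sources used here. From these intensity values log2 was taken without a pseudocount. Of 23410 clusters in the platform annotation, 21789 had 1 gene symbol and 1621 several, and 21698 of the former matched RefSeq symbols. The brightest cluster by mean was kept for each gene, giving 19938 genes.

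Models were fitted across all genes with limma 3.58.1 in R 4.3.3 (lmFit and eBayes, two-sided, Benjamini-Hochberg, threshold 0.05): the divergence from the common start, the difference at matched times, the late difference, and the trend at each temperature, with time as its order. The fits were tested on simulated data. Figures were drawn with matplotlib 3.10.9. Genes named were the 8 members, the 3 genes most correlated with Tasor and with Banp, close relatives, list genes that passed (up to 6 a list by adjusted p) or the 2 with the lowest p where none did. Cell type markers and the cooling checks Cirbp and Rbm3 were also named. The members and lists were chosen with earlier results of these data known. For the genes selected on the temperature difference no p-value is given for it. Counts of calls are set beside the share of all genes called.

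Alternatives were quantile normalization, relative ranks, genes above the median level, all clusters with 1 symbol, log2(value + 16), another cluster of Atf7ip, log2(1 + hours) as time, a separate term for 32 °C, and leaving out each time in turn.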

Additional observations from a re-analysis of the deposited data

How the results depend on the processing

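Of 305 values with an adjusted p, for the 5 members outside the selected pair under alternatives, 285 kept their direction and side of the threshold, 8 became weaker, 3 stronger and 9 reversed. Most of the 285 were values that had not passed to begin with. The 8 weaker values were all the late call of Setdb1, the only call among these 5, which was lost in 8 of 11 alternatives. Tasor and Banp were selected on the temperature difference and carry no test, so only their direction was followed. Of their values other than the trend at 37 °C, 96 of 96 were negative, which follows in part from the selection and is no support. Some of these values also repeat each other, since leaving out an early time does not change a late difference. Among the 5 members that are not Tasor or Banp, the late comparison called 1, against 0 with quantile normalization, 0 on ranks, 2 with genes above the median level, 2 with log2(value + 16) and 0 to 0 with 1 time left out. In the divergence 0 were called, against 1 with genes above the median level (Setdb1, adjusted p = 0.0439). The late difference of Setdb1 stayed between -0.42 and -0.27 with 1 time left out. That of Tasor stayed between -1.22 and -0.93 and that of Banp between -1.67 and -1.20. The reversed values were all near 0. At matched times Trim28 gave -0.060 to 0.0072 with 1 time left out. In the late comparison Pphln1 gave -0.0037 to 0.046 with 1 time left out. In the trend at 37 °C, leaving out 1 time, Pphln1 gave -0.0028 to 0.012, Setdb1 -0.011 to 0.025, Atf7ip -0.047 to 0.0074 and Trim28 -0.0048 to 0.0095, while Setdb1 gave 0.0053 with log2(1 + hours) and the other cluster of Atf7ip gave 0.0019.

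Over all 19938 genes the late comparison called 160 higher and 428 lower. On ranks and without the 8 h pair it called 0 and 0, without 18 h 20 and 47, and without 1 h 48 and 153. Fitted on only the 9969 genes above the median level, it called 248 and 618. The divergence called 234 higher and 331 lower, against 3 and 1 with the added 32 °C term, 16 and 24 without 8 h, 27 and 31 without 4 h, and 81 and 53 without 18 h. On ranks it called 138 and 77. The trend at 32 °C called 9 and 10, against 90 and 263 with log2(1 + hours) and 61 and 150 of the 9969 genes above the median level. The mean at matched times called 3 and 11, and 0 and 0 with quantile normalization, on ranks, without 2 h and without 4 h. The causes were not tested. The labels carry no replicate numbers, so arrays were paired by time only. With 1 array for each time and temperature small differences could not be separated from the scatter of the arrays.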
